A study of Homo sapiens with 4 samples.

Results

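Transfer RNA (tRNA) genes of human chromosome 1 were examined in 2 anti-HA ChIP-seq libraries of K562, a leukemia cell line that was grown from a patient with chronic myeloid leukemia. The RefSeq gene table of GRCh38.p14 lists 98 genes of biotype tRNA under chromosome 1, of 443 nuclear tRNA genes in all. Of these 98, 85 lie on the assembled chromosome and were searched for peaks. The other 13 are listed on further scaffolds whose names the table does not give, so that their positions could not be compared with the peaks. By symbol they are all asparagine, glutamate or glycine tRNA genes. A gene was said to hold a peak when a called peak overlapped it by at least 1 bp.

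The libraries came from cross-linked chromatin of untreated cells that overexpressed HA-PHF6, a tagged form of the PHD finger protein PHF6, or HA alone. Their titles read HA and WT, and this does not settle which one held HA-PHF6, so the libraries are named here by their labels. Each label has 1 ChIP library and 1 input, which serves as the background of the peak calls. No difference could therefore be tested against a spread between replicates. The intervals given for shares of genes are 95% Wilson confidence intervals, which cover counting error only. The library labelled HA kept 16132466 ChIP tags and the library labelled WT 22257947, where a tag is a sequenced read placed at a single position. Over the genome this amounts to a background of 1.05 and 1.68 tags at any position, and the lowest pileups among the called peaks were 4 and 6 tags. Peak lists give no expression, so the identity of the cell line could not be checked with marker genes.

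A tRNA carries 1 amino acid to the ribosome and reads its codon with a triplet, the anticodon. RNA polymerase III transcribes tRNA genes from a promoter that lies within the gene itself, made of the A box and the B box. The factor TFIIIC binds these boxes and places TFIIIB upstream of the start. The genome holds several copies of many tRNA genes. A symbol such as TRG-CCC1-2 gives the amino acid (G, glycine), the anticodon (CCC), the number of a mature sequence (1) and the copy (2), so that genes with the same numbered name share their mature sequence.

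The sequences of 4 tRNA genes could be read from the RefSeq promoter windows (GRCh38.p14) of neighbouring genes, and they show how alike tRNA genes can be. TRN-GTT4-1 (chr1:16889677-16889750, plus strand) and TRN-GTT6-1 (chr1:143735920-143735993, minus strand) belong to the asparagine tRNAs. TRH-GTG1-3 (chr1:148281365-148281436, plus strand) and TRH-GTG1-9 (chr15:45201151-45201222, plus strand) belong to the histidine tRNAs, and the latter is not a gene of chromosome 1. The strand was taken from the match to the B box, since the gene table gives none. Capitals mark the A box, searched as T, any base, G, any 3 bases, A, any 3 bases and G, and the B box, searched as GGTTCGA, any 2 bases and CC. In these genes the A box was searched near the 5′ end, on the strand that held the B box, and the boxes do not overlap.
TRN-GTT4-1: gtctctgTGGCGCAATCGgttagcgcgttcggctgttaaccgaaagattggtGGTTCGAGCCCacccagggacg
TRN-GTT6-1: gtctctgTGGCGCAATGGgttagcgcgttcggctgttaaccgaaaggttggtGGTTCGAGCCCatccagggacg
TRH-GTG1-3: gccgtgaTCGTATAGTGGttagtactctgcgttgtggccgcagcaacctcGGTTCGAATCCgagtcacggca
TRH-GTG1-9: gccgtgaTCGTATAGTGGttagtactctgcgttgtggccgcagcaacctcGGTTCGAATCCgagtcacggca
The asparagine genes were identical at 71 of 74 bases, although they are given different numbers. They differed by C17G, A47G and C65T, with the base of TRN-GTT4-1 first and positions counted from the 5′ end of the gene. The histidine genes, which share a number and lie on different chromosomes, were identical at all 72 bases. The 3 chromosome 1 genes among them held no peak in either library. Of all 35116 promoter windows of 300 bases, 0.185% held the B box letters on either strand and 78.4% the A box letters, also on either strand.

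In the library labelled HA, 27 of the 85 located genes held a peak (31.8%, 22.8% to 42.3%). In the library labelled WT, 1 gene did (1.18%, 0.208% to 6.37%). Over all 429 located nuclear tRNA genes, chromosome 1 included, the shares were 59.7% and 2.1%. Over the 4169 other genes no longer than 106 bp, the length of the longest tRNA gene of chromosome 1, they were 0.504% and 0.0959%. The share on chromosome 1 in the library labelled HA was thus below that of tRNA genes at large and above that of other short genes. On chromosome 6, which carries the largest number of tRNA genes, it was 61.7% (53.8% to 69.0%) of 154 genes, and on the remaining chromosomes 70.5% (63.7% to 76.6%) of 190. The interval for chromosome 1 overlaps neither of them. Single chromosomes of the remaining set varied, and chromosome 7, with 8 of 22 genes (36.4%, 19.7% to 57.0%), had a share near that of chromosome 1 and an overlapping interval. No test was made, since the genes of a library are not replicates.

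All 5 located glycine genes with anticodon CCC held a peak labelled HA, and all lie on 1p. More glycine genes with this anticodon are among the 13 genes that could not be searched. On other chromosomes, 2 of 3 such genes held a peak labelled HA. TRG-CCC6-1 (chr1:121016845-121016915, within the pseudogene PDE4DIPP4) had a pileup of 45 tags at the summit and a fold enrichment of 14.9, the highest of any tRNA gene in that library. Fold enrichment divides the pileup by the number of tags that the input gives for the surroundings, after 1 is added to both. TRG-CCC4-1 reached 40 tags and 10.4-fold, TRG-CCC1-2 reached 23 tags and 5.35-fold, and TRG-CCC5-1 reached 29 tags and 4.03-fold. TRG-CCC1-1 (chr1:16545939-16546009) had the highest pileup of all chromosome 1 tRNA genes, 67 tags, over the highest background, 13.2 tags, for 4.77-fold. It was also the gene with a peak labelled WT. There the pileup was 23 tags over a background of 7.25 tags, for 2.91-fold and a −log10 q of 1.57, against 19.9 in the library labelled HA.

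All 10 glycine genes without a peak lie in a tandem array of 1q that is described below. Of 7 genes with anticodon TCC, TRG-TCC2-1 (36 tags, 8.25-fold) and TRG-TCC2-6 (28 tags, 6.65-fold) held a peak. Of 6 genes with anticodon GCC, TRG-GCC2-1 did, within FCGR2A, the gene of an Fc receptor, with 28 tags and 8.57-fold.

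Both proline genes held a peak. TRP-CGG1-1 had 60 tags over a background of 5.19, for 9.86-fold and a −log10 q of 35.5. TRP-AGG2-1, 691 bp further on, had a separate peak of 44 tags and 5.19-fold, whose summit lay 832 bp from that of TRP-CGG1-1. The initiator methionine gene TRX-CAT1-1, whose tRNA starts translation, is the only one of its kind on the chromosome and had 31 tags and 10.3-fold.

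Of 5 lysine genes, 3 held a peak. TRK-TTT3-1 had 38 tags and 10.3-fold, TRK-CTT2-1 had 34 tags and 6.75-fold, and TRK-TTT3-2 had 18 tags and 4.50-fold. TRK-TTT3-1 and TRK-TTT3-2 share a mature sequence and lie 430 bp apart. TRK-TTT8-1 and TRK-CTT7-1 held none, and the nearest peak to TRK-CTT7-1 was 529 bp away.

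Of 9 glutamate genes, 3 held a peak. TRE-CTC2-1, within PGBD2, had 40 tags and 12.3-fold, the second highest fold of the chromosome 1 tRNA genes. It shares its called region with TRL-CAA4-1, a leucine gene 287 bp away. The region has a summit at each of them, and that of TRL-CAA4-1 had 29 tags and 7.35-fold. TRE-CTC1-1 had 41 tags and 8.10-fold, and TRE-TTC4-2 had 16 tags and 3.79-fold. Besides TRL-CAA4-1, the leucine gene TRL-CAG1-6 held a peak (25 tags, 5.77-fold), among 8 leucine genes. Of the genes without a peak, 4 glutamate genes and 5 leucine genes lie in the tandem array of 1q described below.

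Of 7 valine genes, all with anticodon CAC, TRV-CAC1-7 (18 tags, 6.14-fold), TRV-CAC1-1 (24 tags, 5.08-fold) and TRV-CAC4-1 (7 tags, 3.33-fold) held a peak. TRV-CAC4-1 was the weakest of the 27, with a −log10 q of 0.106, and its pileup was 3 tags above the lowest of any peak in the library. Asparagine has the second largest group among the located genes, and 2 of its 17 held a peak, TRN-GTT7-1 (20 tags, 8.74-fold) and TRN-GTT2-2 (23 tags, 5.02-fold). The 4 asparagine genes with the same anticodon, GTT, on other chromosomes all held one. TRR-TCT1-1 (19 tags, 5.46-fold) was 1 of 2 arginine genes, TRQ-CTG4-1 (11 tags, 3.70-fold) 1 of 5 glutamine genes and TRH-GTG1-1 (15 tags, 3.57-fold) 1 of 4 histidine genes.

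None of the 5 aspartate genes held a peak, nor did the cysteine gene TRC-GCA7-1 or the threonine gene TRT-TGT2-1. All 5 aspartate genes lie in the tandem array of 1q described below, where no gene held a peak. From TRC-GCA7-1 and TRT-TGT2-1 the nearest peak labelled HA was 51173 bp and 123005 bp away. All 8 aspartate genes with the same anticodon on other chromosomes held a peak in that library, as did 4 of 5 threonine genes and 13 of 28 cysteine genes with these anticodons.

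**Figure D1:**
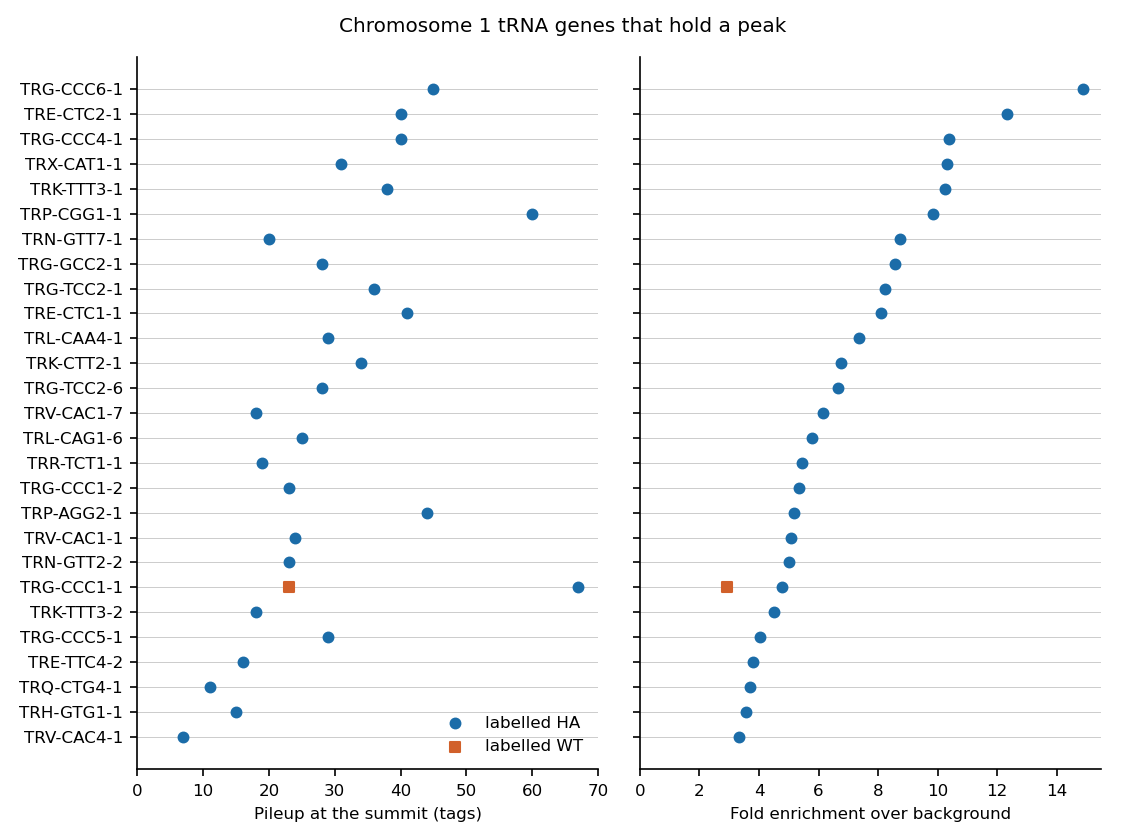
Pileup at the summit in tags (left) and fold enrichment over the local background (right) of the 27 chromosome 1 tRNA genes that held a peak, in order of the fold labelled HA (circles), with the gene that also held a peak labelled WT (square). The fold labelled HA runs from 3.33 at TRV-CAC4-1 to 14.9 at TRG-CCC6-1.

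Peaks at these genes were among the strongest of the chromosome. Their median was 28 tags (range 7 to 67) and 6.14-fold (3.33 to 14.9). The 1108 other peaks of chromosome 1 labelled HA had medians of 6 tags and 2.93-fold. A fold of at least 5 was reached by 20 of the 27 peaks at tRNA genes and by 5 of the 1108 others. The chromosome had 47 peaks whose −log10 q reached 5, and 22 of these covered tRNA genes. Peaks at tRNA genes of chromosome 6 had medians of 24 tags and 4.39-fold, and those of the other chromosomes 23 tags and 5.79-fold. The share of genes with a peak was thus lowest on chromosome 1 among these 3 sets, and the median fold highest. Pileup alone did not set the genes apart, since other peaks of the chromosome reached 397 tags, and their local background reached up to 244 tags.

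**Figure D2:**
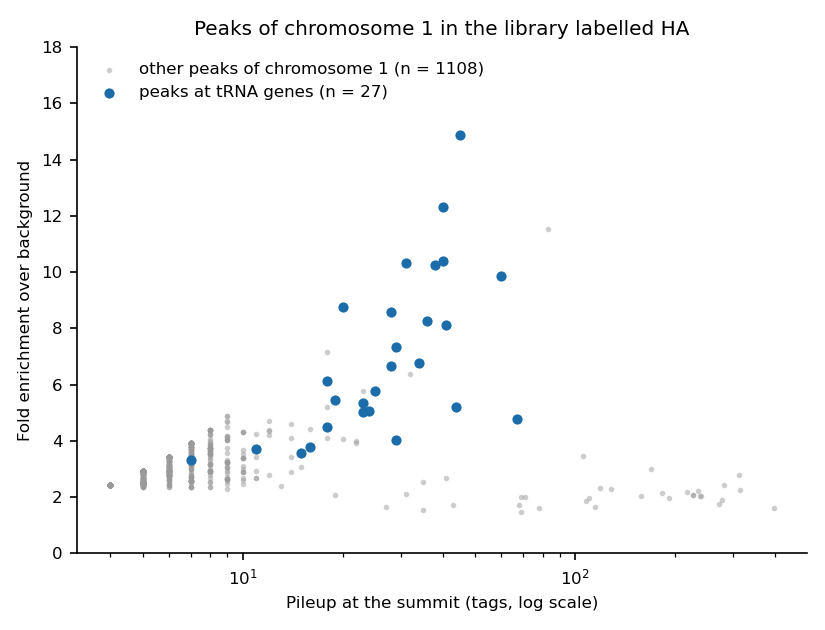
Pileup at the summit (tags, log scale) against fold enrichment for the 27 peaks at tRNA genes (large points) and the 1108 other peaks of chromosome 1 (small points) in the library labelled HA. The other peaks centre on 6 tags and 2.93-fold, while 20 of the 27 at tRNA genes have a fold of at least 5.

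The summits fell on the genes. In 23 of the 27 genes the nearest summit lay within the gene, which is 71 to 106 bp long. The median distance of the summit from the middle of the gene was 10 bp and the largest was 53.5 bp, at TRH-GTG1-1. The other summits outside the gene were at TRR-TCT1-1, TRQ-CTG4-1 and TRP-AGG2-1. The peaks had a median length of 301 bp, several times the length of a gene. No gene without a peak had one within 250 bp.

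**Figure D3:**
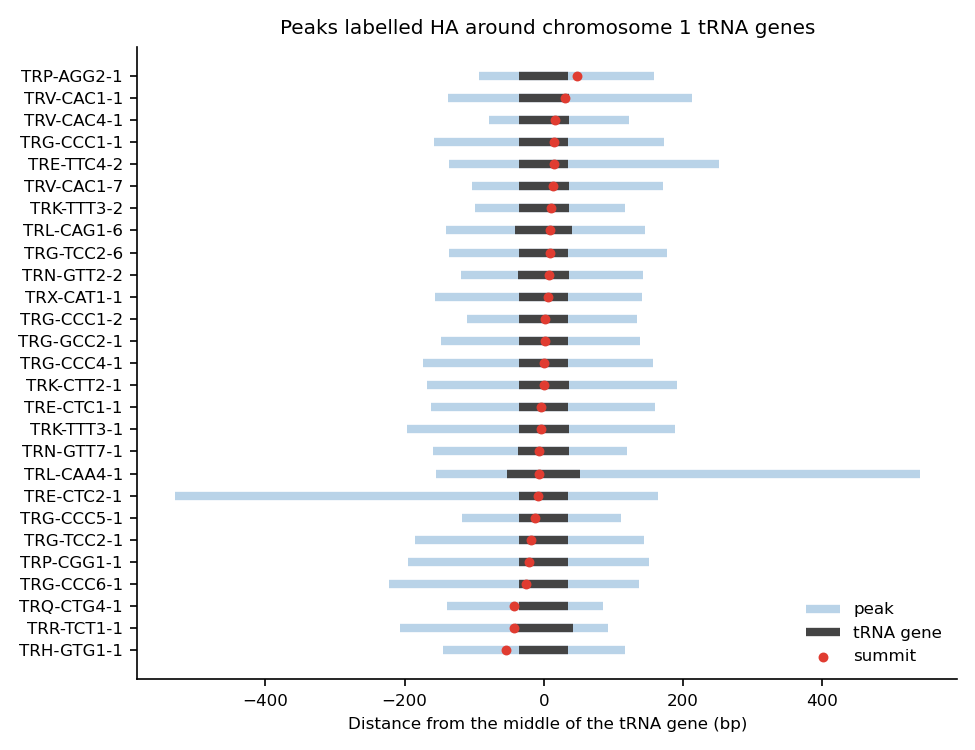
Called peaks labelled HA (light bars), tRNA genes (dark bars) and summits (points) by distance in bp from the middle of the gene, for the 27 genes with a peak. In 23 genes the summit lies on the gene, and the long bars of TRL-CAA4-1 and TRE-CTC2-1 are 1 region with 2 summits.

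For 2 of these genes, picked as examples, the peak reached the promoter window of a coding gene. The window is printed to show what lies beside the tRNA gene. How many of the other peaks reach such a window was not counted. The peak at TRX-CAT1-1 ran from 153671129 to 153671427 and covered 115 bases of the ILF2 window (chr1:153670944-153671243, minus strand), which ends 6 bp from the tRNA gene. ILF2 encodes a double-stranded RNA binding protein. The peak at TRR-TCT1-1, which lies within BCAR3, ran from 93847408 to 93847708 and covered 62 bases of a BCAR3 window (chr1:93847170-93847469, minus strand), 103 bp from the tRNA gene. BCAR3 encodes a signalling adaptor. Capitals mark the bases that the peak covered, and the sequences run 5′ to 3′ on the strand of the coding gene.
ILF2: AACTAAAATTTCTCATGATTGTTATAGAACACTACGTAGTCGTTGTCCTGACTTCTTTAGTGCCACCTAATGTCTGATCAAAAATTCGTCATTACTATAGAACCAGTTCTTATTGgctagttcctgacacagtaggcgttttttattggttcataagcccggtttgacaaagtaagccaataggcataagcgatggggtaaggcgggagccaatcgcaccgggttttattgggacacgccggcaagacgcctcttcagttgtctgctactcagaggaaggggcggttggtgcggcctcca
BCAR3: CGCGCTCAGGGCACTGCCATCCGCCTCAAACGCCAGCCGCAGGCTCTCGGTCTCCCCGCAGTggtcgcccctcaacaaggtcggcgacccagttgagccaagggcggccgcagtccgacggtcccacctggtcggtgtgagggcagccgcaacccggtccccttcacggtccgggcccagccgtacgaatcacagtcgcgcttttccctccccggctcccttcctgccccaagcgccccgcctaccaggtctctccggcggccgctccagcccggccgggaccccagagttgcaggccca
The letters of the B box were found 0 times in either window, on both strands. The summit of the ILF2 peak lay within TRX-CAT1-1, and that of the BCAR3 peak lay outside its window as well.

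Of the 27 genes with a peak, 5 lay within another annotated gene, of 19 such genes in all (26.3%, 11.8% to 48.8%). Of the 66 that lay in none, 22 held a peak (33.3%, 23.2% to 45.3%). Exons and introns are not given in the table used.

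By arm, 7 of 15 genes on 1p held a peak labelled HA (46.7%, 24.8% to 69.9%) and 20 of 70 on 1q (28.6%, 19.3% to 40.1%), with overlapping intervals. The single gene with a peak labelled WT was on 1p, and 0 of 70 genes on 1q held one, which allows a share of up to 4.29% by the rule of 3 counts in the total and of up to 5.20% by the Wilson interval. The median fold of the peaks labelled HA was 5.46 on 1p and 6.40 on 1q. The 5 located glycine CCC genes, TRR-TCT1-1 and TRN-GTT7-1 made up the 7 on 1p.

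Genes were grouped by position into runs with gaps of at most 20 kb. A run was called repeated where a numbered name occurred in it at least 2 times. There were 2 repeated runs with 28 genes, 12 other groups with 30 genes and 27 single genes. In the repeated runs 4 of 28 genes held a peak labelled HA (14.3%, 5.70% to 31.5%), among single genes 7 of 27 (25.9%, 13.2% to 44.7%) and in the other groups 16 of 30 (53.3%, 36.1% to 69.8%). With gaps of at most 5 kb, the shares were 8% (2 of 25) in repeated runs and 29.5% (13 of 44) among single genes. With 100 kb they were 23.7% (9 of 38) and 20% (3 of 15), so their order depends on the gap chosen. At 20 kb, the smaller repeated run is the TRK-TTT3 pair, in which both genes held a peak (10.3-fold and 4.50-fold). The larger, with 26 genes over 58.5 kb, had peaks at its first 2 genes alone, TRE-TTC4-2 (3.79-fold) and TRN-GTT2-2 (5.02-fold).

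The 24 genes that follow them, from TRG-TCC4-1 to TRG-GCC4-1 (chr1:161440171-161480636), form a tandem array, which was marked out after the values were seen. The aspartate, glutamate, glycine and leucine genes TRD-GTC2, TRE-CTC1, TRG-TCC2, TRG-GCC1 and TRL-CAG1 recur there as copies 7360 to 7431 bp apart. None of the 24 genes held a peak in either library, which allows a share of up to 12.5% by the rule of 3 counts and 13.8% by the Wilson interval. Within the 40.5 kb of the array there were 0 peaks labelled HA at any place and 1 peak labelled WT, 330 bp from TRE-CTC1-3, with 16 tags and 2.64-fold. The names repeated in the array account for 22 of its genes. Of the 14 genes with these same 5 names elsewhere, 4 on chromosome 1 and 10 on other chromosomes, all 14 held a peak labelled HA. The 4 on chromosome 1 were TRE-CTC1-1, TRG-TCC2-1, TRG-TCC2-6 and TRL-CAG1-6. The peaks were called on reads placed at a single position, with a tag size of 143 bp in the library labelled HA, which is longer than any of these genes and much shorter than the repeat. The part of read placement in this count was not tested.

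**Figure D4:**
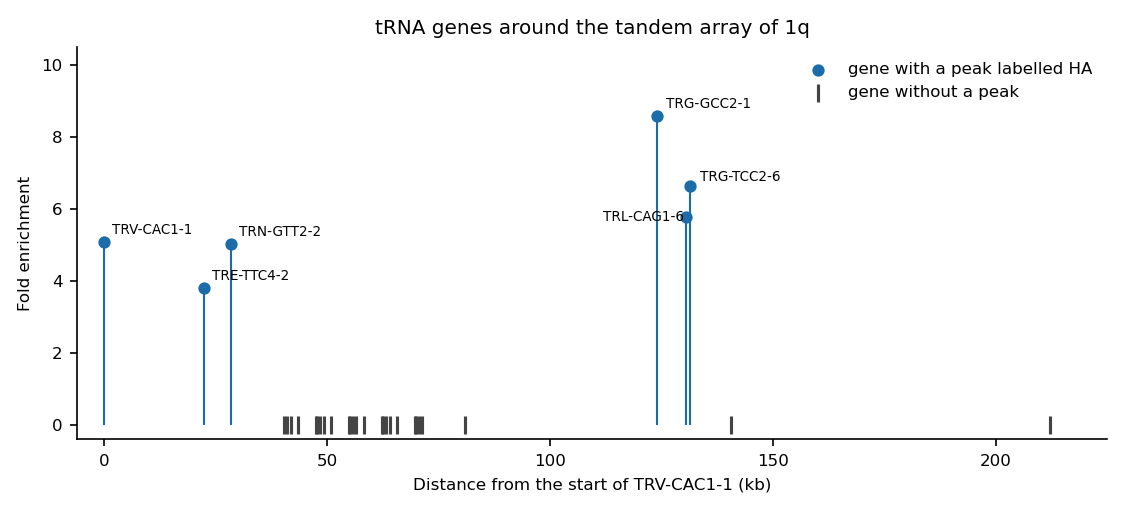
tRNA genes around the tandem array of 1q by distance in kb from the start of TRV-CAC1-1, with the fold enrichment of genes that held a peak labelled HA (points on stems) and genes without one (ticks at 0). Each side of the array has 3 genes with a peak, between 3.79-fold and 8.57-fold, and the 24 genes of the array have none.

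On both sides of the array, genes did hold peaks. Before it were TRV-CAC1-1, TRE-TTC4-2 and TRN-GTT2-2, and after it TRG-GCC2-1, TRL-CAG1-6 and TRG-TCC2-6. TRN-GTT1-1 and TRL-CAA6-1 followed without a peak. Without the array, 27 of 61 genes of chromosome 1 held a peak labelled HA (44.3%, 32.5% to 56.7%).

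The stretch of 1q next to the centromere, from TRQ-CTG4-2 to TRN-GTT8-1, holds 28 tRNA genes over 6.05 Mb, and 7 of them held a peak labelled HA (interval of the share 12.7% to 43.4%). This stretch was also marked out after the values were seen. Counting peaks of any kind, those at tRNA genes included, the stretch had 5.95 peaks labelled HA per Mb against 4.56 over chromosome 1, and 1.16 labelled WT against 2.78. The rates of chromosome 1 were taken over 249 Mb, the centromere included. For this stretch, too, the part of read placement was not tested. The 7 genes were TRV-CAC4-1, TRQ-CTG4-1, TRV-CAC1-7 and a group of 4 neighbours. In that group TRE-CTC1-1, TRG-TCC2-1, TRH-GTG1-1 and TRK-CTT2-1 lay within 3.78 kb, and each had its own peak, from 3.57-fold at TRH-GTG1-1 to 8.25-fold at TRG-TCC2-1. The other 3 genes named TRH-GTG1 on chromosome 1 held none, and 3 of 5 on other chromosomes held one. Outside both this stretch and the array, 20 of 33 genes held a peak (60.6%, 43.7% to 75.3%).

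By name, 8 of the 30 genes whose numbered name has 1 copy in the genome held a peak labelled HA (26.7%, 14.2% to 44.4%), and 19 of the 53 with several copies (35.8%, 24.3% to 49.3%). The 2 valine genes without a number held none. The intervals of these shares overlap. For 13 names with copies both on chromosome 1 and on other chromosomes, 13 of 37 copies held a peak on chromosome 1 (35.1%, 21.8% to 51.2%) and 45 of 52 elsewhere (86.5%, 74.7% to 93.3%). Of those 37 copies, 18 are in the array with 0 peaks, and 13 of the 19 others held one (68.4%, 46.0% to 84.6%). The interval of the latter overlaps that of the copies elsewhere.

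Of the 27 genes with a peak labelled HA, 26 had none labelled WT, and the nearest peak labelled WT was at least 5457 bp away. This is not particular to chromosome 1. Over all 429 located tRNA genes, 256 held a peak labelled HA and 9 a peak labelled WT. At the folds seen in the library labelled HA, the genome-wide background labelled WT, 1.68 tags, would give 7.93 to 38.9 tags at the 27 genes. The weakest peaks labelled WT had 6 tags, but peaks are called against the local background. At TRG-CCC1-1 the local background labelled WT was 7.25 tags. For the other 26 genes it is not known, since the list gives it for called peaks alone. These tag numbers therefore cannot show whether a peak labelled WT would have been called there. At TRG-CCC1-1 the measured pileup labelled WT, 23 tags, and its fold of 2.91 lay below the 67 tags and 4.77-fold labelled HA. With 1 library per label, the cells and the single preparation cannot be told apart as sources of these differences.

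Chromosome 1 also carries the array of 5S ribosomal RNA genes, which RNA polymerase III transcribes through a different internal promoter. Of its 17 genes RNA5S1 to RNA5S17, 0 held a peak in either library, which allows a share of up to 17.6% by the rule of 3 counts and 18.4% by the Wilson interval. Between the genes, the 35.9 kb of this array held 0 peaks labelled HA and 2 labelled WT. These genes are repeated like the tRNA array, and the part of read placement was not tested here either. Another list holds 23 genes for the machinery itself (subunits of RNA polymerase III, TFIIIA, TFIIIB and TFIIIC, and MAF1 and SSB). Of these, 8 held a peak labelled HA (34.8%, 18.8% to 55.1%) and 2 a peak labelled WT (8.70%, 2.42% to 26.8%). Among all protein-coding genes, whose lengths were not matched, the shares were 18.2% and 8.63%. The strongest peaks labelled HA in this list were at POLR3E, a polymerase subunit gene (21 tags, 4.90-fold), and at MAF1, the gene of a repressor of the polymerase (17 tags, 4.26-fold). All further peaks labelled HA at these genes were weak, with up to 9 tags and a −log10 q of up to 0.616.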

How the data were processed

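Cross-linked chromatin of K562 cells was precipitated with an antibody to HA, giving 1 ChIP library and 1 input per label. The submitters' processing notes list BWA 0.7.12 and MACS2 2.1.0, without roles. Per the file headers, the authors ran MACS 2.1.0.20150420 on each label separately, with the matching input as control. The names of the alignments mark uniquely mapped, deduplicated reads. Peaks passed a p-value of 0.005, tags were extended to 201 bp (labelled HA) or 234 bp (labelled WT), and regions were split by summit. The deposited signal of a peak is the pileup of extended tags at its summit. The deposited fold enrichment is the ratio of pileup to local background, each with 1 added. The p-value and q-value of each peak were deposited as −log10. The headers announce no q-values, yet the column holds them, and it was used unchanged. Peak length, also deposited, is in bp. The input held 23134375 tags (labelled HA) and 24567954 tags (labelled WT).

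The files name no genome build. Their contig names are those of GRCh38, and genes were placed with the RefSeq table of GRCh38.p14, which gives no strand or exons. Rows listed after the positions of a chromosome start again were taken to lie on other scaffolds. Amino acid, anticodon and copy were read from the symbol. Where a gene overlapped 2 summits, the values of the one nearest its middle are given. The background was computed from pileup and fold. Genes to be named were the 20 with the highest −log10 q, those with a peak labelled WT, the strongest and weakest of each amino acid, those with the only copy of an anticodon, and the highest and lowest of repeated runs. The members, lists and groups were chosen with earlier results of these data known. Alternatives were thresholds on q and fold, other overlaps, names as the unit and other gaps between runs. The overlap and grouping steps were tested on simulated data. The software was Python 3.11.15 with scipy 1.17.1, numpy 2.4.6, pandas 2.3.3 and matplotlib 3.10.9.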

Additional observations from a re-analysis of the deposited data

How the results depend on the processing

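The share of tRNA genes of chromosome 1 with a peak labelled HA was 31.8% in the main setting, 25.9% for peaks whose −log10 q reached 5, 29.4% at a q-value under 0.05 and 23.5% at a fold of at least 5. The other definitions of overlap (a summit within 100 bp, 50% of the gene covered, a peak within 250 bp) gave the same 27 genes in number. It rose to 45.1% with the 49 numbered names and the 2 unnumbered genes as units, since copies then count once. It was 27.6% with the 13 genes on other scaffolds counted as without a peak. The share labelled WT, 1.18%, fell to 0% when a −log10 q of 5 was required, and to 0% when a fold of 5 was. Without the tandem array, which was left out only after seeing the data, the share labelled HA was 44.3% over the chromosome, 43.5% on 1q, 61.3% for names of several copies and 100% in the repeated runs, where 4 genes remain. Over 10 results, 63 of the 66 other settings listed at the outset kept the value within the 95% interval of the main one. This is a weak criterion. The other definitions of overlap left every result unchanged, and some intervals were wide, such as 24.8% to 69.9% for the 15 genes of 1p. No paired analysis was possible because each label has 1 ChIP library. Single weak peaks carry little precision, since the weakest rests on 7 tags.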
